A study of Mus musculus with 4 samples.

Results

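The ubiquitin-specific proteases (USPs) are the largest family of enzymes that remove ubiquitin from proteins, and their transcripts were followed here in mammary tumours of mice with and without an intact Nr1d1 gene. Members were all gene symbols of the count tables that consist of Usp, a number and at most 1 letter, leaving out Usp18. This gave 49 of the 23282 rows of the tables, and 46 of the 49 had enough counts to be tested. RNA sequencing was done on 4 tumour samples of female FVB mice aged 14 weeks, all of which carried PyMT, the middle T oncogene of mouse polyoma virus. The 2 control samples were labelled Nr1d1+/+;PyMT and the other 2 were labelled Nr1d1-/-;PyMT. Nr1d1 encodes REV-ERBα, a nuclear receptor that represses transcription in the circadian clock. The promoter that drives PyMT, the exons removed in the null allele, the hour of collection and any pooling of animals are not stated in the labels. Nor is it stated whether the replicates are tumours of different mice, so each p-value reflects the spread among these 4 samples alone, and that spread may be technical.

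Ubiquitin is a small protein that is attached to other proteins through the successive action of E1, E2 and E3 enzymes, and chains of it mark proteins for the proteasome, for endosomal sorting or for changes in activity. USPs are cysteine proteases that trim or remove these chains, each with its own set of substrates and partner subunits. In tumours the family is best known for controlling the stability of p53, MDM2, MYC and growth factor receptors, and in the clock several USPs act on PER, CRY and BMAL1 proteins.

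Total counts ranged from 15905404 to 19116279 per sample, and levels are given as CPM, a gene's counts scaled to library size and TMM-normalised, always in the order Nr1d1+/+ replicate 1, Nr1d1+/+ replicate 2, Nr1d1-/- replicate 1 and Nr1d1-/- replicate 2. The level of Nr1d1 was 20.2, 10.3, 10.6 and 12.8 CPM (fitted log2 fold -0.37, SE 0.35, edgeR adjusted p = 0.436), so the transcript does not check the labels and every direction below rests on them. Luminal epithelial markers were abundant in all 4 samples and moved with genotype, with sums of 5748, 4854, 9426 and 8789 CPM over 8 genes. Of these the keratins Krt7, Krt8, Krt18 and Krt19 rose, Cdh1 and Erbb3 fell and Epcam and Elf3 did not pass. Of 5 basal markers 3 rose (Krt14, Acta2 and Oxtr) and 1 fell (Trp63), with sums of 139.6, 151, 329 and 436 CPM. Summed skeletal muscle markers (9 of 9 listed genes) stood at 800 CPM in Nr1d1-/- replicate 1 and between 2.3 and 6.02 CPM in the other samples. Red blood cell markers rose in the Nr1d1-/- samples, with 5 of 5 called and sums of 453, 581, 2016 and 2194 CPM. Macrophage markers had 2 of 6 called higher and sums of 93.3, 123, 199 and 291 CPM, and endothelial markers 3 of 6 and sums of 41.5, 52.4, 80.6 and 86.9 CPM. The endothelial markers Cdh5 (11.9, 13.3, 6.82 and 11.4 CPM) and Kdr (3.97, 7.09, 1.91 and 3.04 CPM) were lower in both Nr1d1-/- samples and did not pass. The part that these cell types have in the values below was not tested. In whole tumour tissue, fewer cells of a type and less RNA per cell cannot be told apart.

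Transcripts of many USPs were lower in the Nr1d1-/- tumours. Among the 46 USPs with enough counts, 22 fell, 2 rose and 22 did not pass at a Benjamini-Hochberg adjusted p under 0.05 in edgeR's quasi-likelihood test over all 14801 tested genes. Over all tested genes 33.9% were called, 17.3% lower and 16.5% higher, so that 47.8% of the tested USPs and 17.3% of all tested genes were called lower. The libraries also differed by genotype in the ribosomal RNA gene Rn45s, at 2.94%, 3.39%, 4.36% and 7.64% of counts, and in the TMM factor, at 1.11, 1.18, 0.859 and 0.895, and the part of these in the member counts was not tested. The median log2 fold (Nr1d1-/- over Nr1d1+/+) was -0.86 for the members and -0.01 for all tested genes. Of the 22 members that fell, 17 had a log2 fold below -1. Usp8, Usp25, Usp16, Usp53 and Usp54 had the lowest log2 folds, and Usp26 and Usp39 were the members that rose. The 2 genotypes did not overlap for 35 of the 46 tested members, against 70.5% of all tested genes. They did not overlap and had the lower values in Nr1d1-/- for 28 of the 46, against 36.2% of all tested genes.

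**Figure D1:**
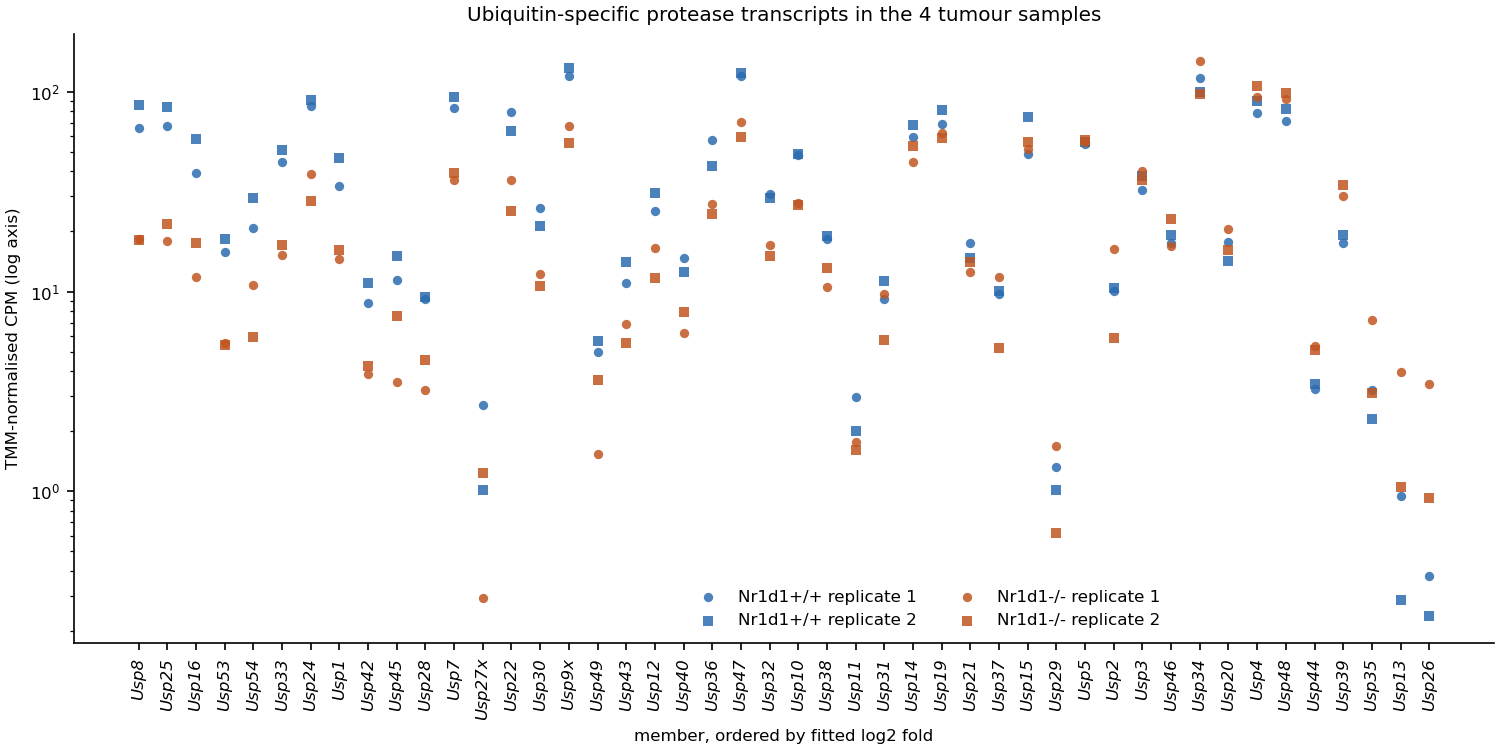
TMM-normalised CPM (log axis) of the 46 tested ubiquitin-specific proteases in each of the 4 samples, ordered from the lowest to the highest fitted log2 fold; circles are replicate 1 and squares replicate 2, blue Nr1d1+/+ and orange Nr1d1-/-. On the left the orange points lie below the blue ones, as for Usp8 (18.3 and 18.1 against 66 and 86.1 CPM), and on the right Usp26 and Usp13 are high mainly in Nr1d1-/- replicate 1.

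The summed level of all 49 members was 1686, 1838, 1207 and 1129.6 CPM, a mean of 1762 ± 108 in Nr1d1+/+ and 1168 ± 54.4 in Nr1d1-/- (SD, n = 2). The 39 genes of the other deubiquitinase families, listed further on, had sums of 2268, 2215, 2825 and 2706 CPM. Among them are abundant inactive relatives of the JAMM metalloproteases. Their means in Nr1d1+/+ and Nr1d1-/- were 455 and 484 CPM for Eif3h and 193 and 383 CPM for Eif3f. For Psmd7 they were 167 and 231 CPM and for Cops6 162 and 278 CPM. Of the 38 tested genes of these families 20 had a log2 fold below 0. As CPM of the total counts, without TMM scaling, the USP sums were 1864, 2161, 1035 and 1010.4 and those of the other families 2508, 2604, 2423 and 2421. The USP sums were thus lower in both Nr1d1-/- samples under either scaling, while the direction for the other families turned with the scaling. Per kilobase of transcript, the members with the highest Nr1d1+/+ levels were Usp4 (23 CPM per kilobase), Usp47 (21), Usp7 (18.6), Usp8 (18.3) and Usp5 (17.2). In Nr1d1-/- the highest were Usp4 (27.6 CPM per kilobase), Usp5 (17.7), Usp48 (16.6) and Usp39 (14.3), while Usp7 stood at 7.98 and Usp8 at 4.37 CPM per kilobase.

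Members of the family have long transcripts, and in these libraries the fold of a gene moved with the length and GC content of its transcript. The median transcript length was 4736 bases for the tested members and 2981 bases for all tested genes, and the median GC content was 47.3% and 50.2%. Across all 14651 tested genes with both properties, Spearman's rho of the log2 fold was -0.32 with length and 0.31 with GC content. Within the 46 members it was -0.07 and 0.20, given as a description over genes that share the same 4 libraries. With the trends of each library on GC content and length removed, 14 members fell and 3 rose, against 10.6% lower and 11.2% higher over all genes tested that way, and the median log2 fold was -0.46 for the members and -0.03 for all genes. All 14 were among the 22 above. The calls of Usp9x, Usp12, Usp28, Usp32, Usp40, Usp42, Usp45 and Usp47 were lost, with log2 folds between -0.98 and -0.37. When libraries were scaled by total counts alone, 26 members fell and 0 rose, against 29.8% lower and 8.65% higher over all tested genes, with a median log2 fold of -1.24 where that of all genes was -0.38. Without Nr1d1+/+ replicate 2, 14 members were called lower, and without any other single library 16 to 21 were. All 22 kept a log2 fold below 0 in each of the 4 fits that left out 1 library. Their genotypes did not overlap for any of the 22, so leaving out 1 library could hardly turn the sign.

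**Figure D2:**
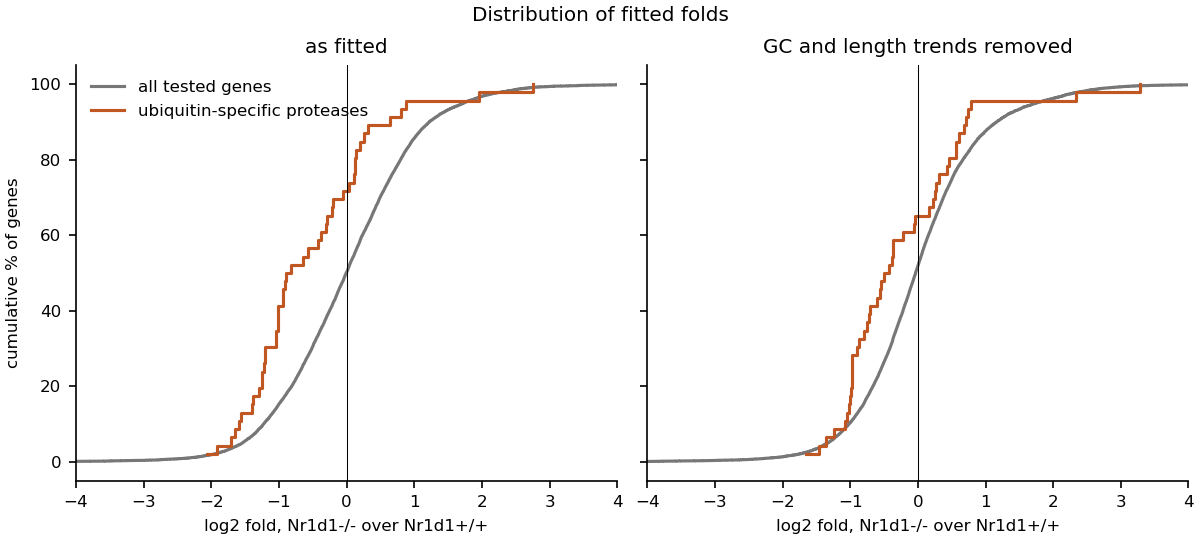
Cumulative percentage of genes against the log2 fold (Nr1d1-/- over Nr1d1+/+) for all tested genes (grey) and for the 46 tested ubiquitin-specific proteases (orange), as fitted (left) and with GC and length trends removed (right). The orange curve lies to the left of the grey one over most of the range in both panels, with medians of -0.86 against -0.01 on the left and -0.46 against -0.03 on the right.

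**Figure D3:**
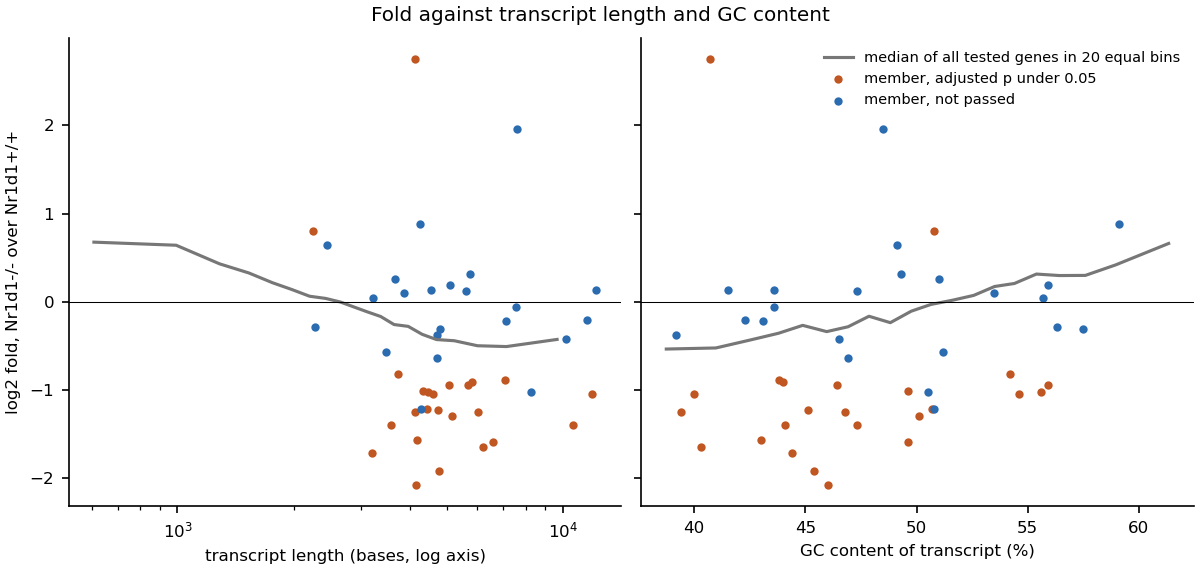
Log2 fold of the 46 tested members against transcript length in bases (left, log axis) and GC content in % (right); orange points passed an adjusted p under 0.05, blue points did not, and the grey line joins the medians of all tested genes in equally filled bins. Members that fell have transcripts from 3205 to 11887 bases long and lie over much of the range of both axes.

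The sequence before the transcription start was read for 38 of the 49 members, as the 250 bases upstream of each RefSeq start (GRCm38.p6). These windows were rich in CpG dinucleotides, with a median of 23.5 CpG for the members, 14 for tested genes and 6 for all windows. The hexamer CCGGAA, the core of sites bound by ETS factors, was found on either strand in 12 of 38 member windows (31.6%), in 19.9% of windows of tested genes and in 3952 of all 32851 windows. Among members with a window it was in 7 of the 15 that fell and in 3 of the 20 that were tested and did not fall. The 38 member windows are of 38 genes and include untested members, with Usp51 and Usp9y among the 12 that hold CCGGAA. Those of tested genes are 13974 windows of 11013 genes, so the 2 sets are not alike. The GC box GGGCGG was in 25 of 38 (65.8%), against 54.9% of windows of tested genes and 32.7% of all windows. The nuclear receptor half-site AGGTCA, which REV-ERB and ROR receptors can bind within a longer site, was in 3 windows (7.89%), those of Usp10, Usp20 and Usp51, against 11.3% and 14.0%. The E-box CACGTG, the site of the clock activators, was in those of Usp4, Usp16 and Usp31 (7.89%), against 7.89% and 6.02%. The pentamer CCAAT was in 9 windows (23.7%, against 34.8% and 33.8%) and TGACGTCA in 0 (against 2.50% and 1.55%). The motifs were chosen with the folds known, a match is a description of letters, and no test was made. Windows are printed 5′ to 3′ with matches to these motifs in capitals for Usp8, the member with the lowest fold (plus strand, chr2:126707078-126707327), of Usp24, a large member that fell (plus strand, chr4:106315963-106316212), of Usp10, the member that fell and holds AGGTCA (plus strand, chr8:119910110-119910359), and of Usp4, an abundant member that did not pass (plus strand, chr9:108347581-108347830).
Usp8: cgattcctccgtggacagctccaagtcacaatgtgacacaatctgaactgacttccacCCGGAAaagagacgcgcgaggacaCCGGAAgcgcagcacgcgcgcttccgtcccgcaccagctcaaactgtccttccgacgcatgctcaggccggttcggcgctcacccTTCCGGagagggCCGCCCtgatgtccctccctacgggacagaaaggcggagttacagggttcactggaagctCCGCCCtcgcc
Usp24: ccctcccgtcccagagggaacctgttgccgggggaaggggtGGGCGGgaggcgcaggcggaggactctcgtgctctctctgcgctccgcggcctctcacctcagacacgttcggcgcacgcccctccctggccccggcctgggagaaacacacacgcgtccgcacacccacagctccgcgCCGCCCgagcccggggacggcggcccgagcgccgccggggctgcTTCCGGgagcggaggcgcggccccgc
Usp10: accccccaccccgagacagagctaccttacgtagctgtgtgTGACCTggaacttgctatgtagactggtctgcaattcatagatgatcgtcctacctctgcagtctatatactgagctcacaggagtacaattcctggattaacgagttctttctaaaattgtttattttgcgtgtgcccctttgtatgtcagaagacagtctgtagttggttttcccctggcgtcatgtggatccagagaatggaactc
Usp4: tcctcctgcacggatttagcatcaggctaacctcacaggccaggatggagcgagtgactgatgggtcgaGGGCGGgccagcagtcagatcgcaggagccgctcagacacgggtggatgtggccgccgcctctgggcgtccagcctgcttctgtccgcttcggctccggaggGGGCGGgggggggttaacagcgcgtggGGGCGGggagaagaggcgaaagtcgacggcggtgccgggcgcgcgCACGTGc
In these letters Usp8 holds CCGGAA or its reverse complement TTCCGG at 3 places and the GC box at 2, Usp24 holds 1 ETS core and 2 GC boxes, and Usp4 holds 3 GC boxes and a CACGTG close to its start. Usp10 holds 6 CpG in its window, where Usp8 holds 24, Usp24 33 and Usp4 26.

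Among the enzymes of endosomes and mitochondria, 2 of 3 tested members fell. Of all tested genes 17.3% were called lower, and of the tested USPs 47.8%. These shares stand beside the counts of this and the following role groups, none of which was tested as a set. Usp8, which removes ubiquitin from growth factor receptors and from the ESCRT machinery on endosomes, lies on chromosome 2 from 126707328 to 126759297 (GRCm38, plus strand). Its level was 66, 86.1, 18.3 and 18.1 CPM, 76 ± 14.2 against 18.2 ± 0.14 (SD, n = 2), a 4.19-fold lower fitted level in Nr1d1-/- (log2 fold -2.07, SE 0.22, edgeR adjusted p = 0.00143). Both Nr1d1-/- samples stood far under both controls and nearly coincided, and with trends removed the log2 fold was -1.65 (edgeR adjusted p = 0.00208). Usp30, an enzyme of the outer mitochondrial membrane that opposes the removal of damaged mitochondria, was at 26.1, 21.3, 12.3 and 10.7 CPM (fitted log2 fold -1.04, SE 0.25, edgeR adjusted p = 0.015; 0.08 without Nr1d1+/+ replicate 1). The genotypes did not overlap for Usp30. Usp35 was at 3.22, 2.3, 7.18 and 3.1 CPM and overlapped between genotypes, and its log2 fold of 0.88 ± 0.49 (SE; edgeR adjusted p = 0.2) was 0.17 without Nr1d1-/- replicate 1, the sample with the high muscle markers, and 1.38 (edgeR adjusted p = 0.0366) without Nr1d1-/- replicate 2.

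The related pair Usp25 and Usp28 fell together. Usp25 (chromosome 16 from 77013706 to 77116780) was at 67.4, 83.7, 18 and 21.8 CPM, 75.6 ± 11.5 against 19.9 ± 2.65 (SD, n = 2), a 3.79-fold lower fitted level (log2 fold -1.92, SE 0.22, edgeR adjusted p = 0.00186). It remained called with trends removed (log2 fold -1.46). Usp28, known for protecting MYC from degradation, was at 9.18, 9.43, 3.23 and 4.53 CPM (fitted log2 fold -1.25, SE 0.35, edgeR adjusted p = 0.0249). Its samples did not overlap, but of the 4 fits that left out 1 library the Usp28 call was kept only in that without Nr1d1-/- replicate 2: the edgeR adjusted p was 0.0754 or 0.106 without control replicate 1 or 2, 0.0761 without Nr1d1-/- replicate 1 and 0.102 with trends removed.

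Of the members linked to p53 and to clock proteins, 3 of 4 fell. Usp7, which deubiquitinates MDM2 and p53 and also stabilises cryptochromes, lies on chromosome 16 from 8689595 to 8792308. It was at 82.8, 94.1, 36.4 and 39.3 CPM, 88.5 ± 7.98 against 37.9 ± 2.05 (SD, n = 2), a fitted log2 change of -1.22 ± 0.19 (SE; edgeR adjusted p = 0.00303). The difference was well outside the spread of either genotype. Usp10, which acts on cytoplasmic p53 and binds the stress granule protein G3BP, was at 48.4, 48.6, 27.8 and 27.1 CPM (fitted log2 fold -0.82, SE 0.19, edgeR adjusted p = 0.0134; 0.0597 without Nr1d1+/+ replicate 2). The replicates of Usp10 agreed closely in both genotypes. Usp42, another p53 deubiquitinase, was at 8.8, 11.1, 3.89 and 4.22 CPM (fitted log2 fold -1.29, SE 0.34, edgeR adjusted p = 0.0202), which did not pass with trends removed (0.0656) or without Nr1d1+/+ replicate 2 (0.136).

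Usp2, the family member whose transcript follows the clock in many tissues and whose protein acts on PER1 and BMAL1, did not pass. Its level was 10.1, 10.4, 16.3 and 5.89 CPM, so that the control samples were alike and the Nr1d1-/- samples lay on either side of them. On the log2 scale the fitted change was 0.10 ± 0.43 (SE; edgeR adjusted p = 0.873). This became -0.80 without Nr1d1-/- replicate 1 and 0.68 without Nr1d1-/- replicate 2. The hour at which the tumours were taken is not recorded in the labels, and an effect of the hour cannot be told apart from one of genotype.

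The members Usp1, Usp12 and Usp46 bind the WD-repeat protein WDR48, and 2 of these 3 fell. Usp1, which acts on FANCD2 and PCNA in DNA repair, was at 33.8, 46.6, 14.6 and 16.1 CPM, 40.2 ± 9.06 against 15.3 ± 1.05 (SD, n = 2), a fitted log2 change of -1.39 ± 0.24 (SE; edgeR adjusted p = 0.00457). Usp12 was at 25.4, 31.3, 16.6 and 11.7 CPM (fitted log2 fold -1.01, SE 0.26, edgeR adjusted p = 0.0199), and it did not pass with trends removed (0.0754), without Nr1d1+/+ replicate 2 (0.11) or without Nr1d1-/- replicate 2 (0.0614). Usp46, the close paralog of Usp12, was at 17.6, 19.2, 17 and 23.1 CPM, with overlapping genotypes and a fitted log2 change of 0.13 ± 0.25 (SE; edgeR adjusted p = 0.729) that was -0.25 with library size only. Wdr48 itself fell from 40.6 ± 5.53 to 21.9 ± 5.84 CPM (SD, n = 2; log2 fold -0.89, SE 0.25, edgeR adjusted p = 0.0254, and 0.108 with trends removed).

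**Figure D4:**
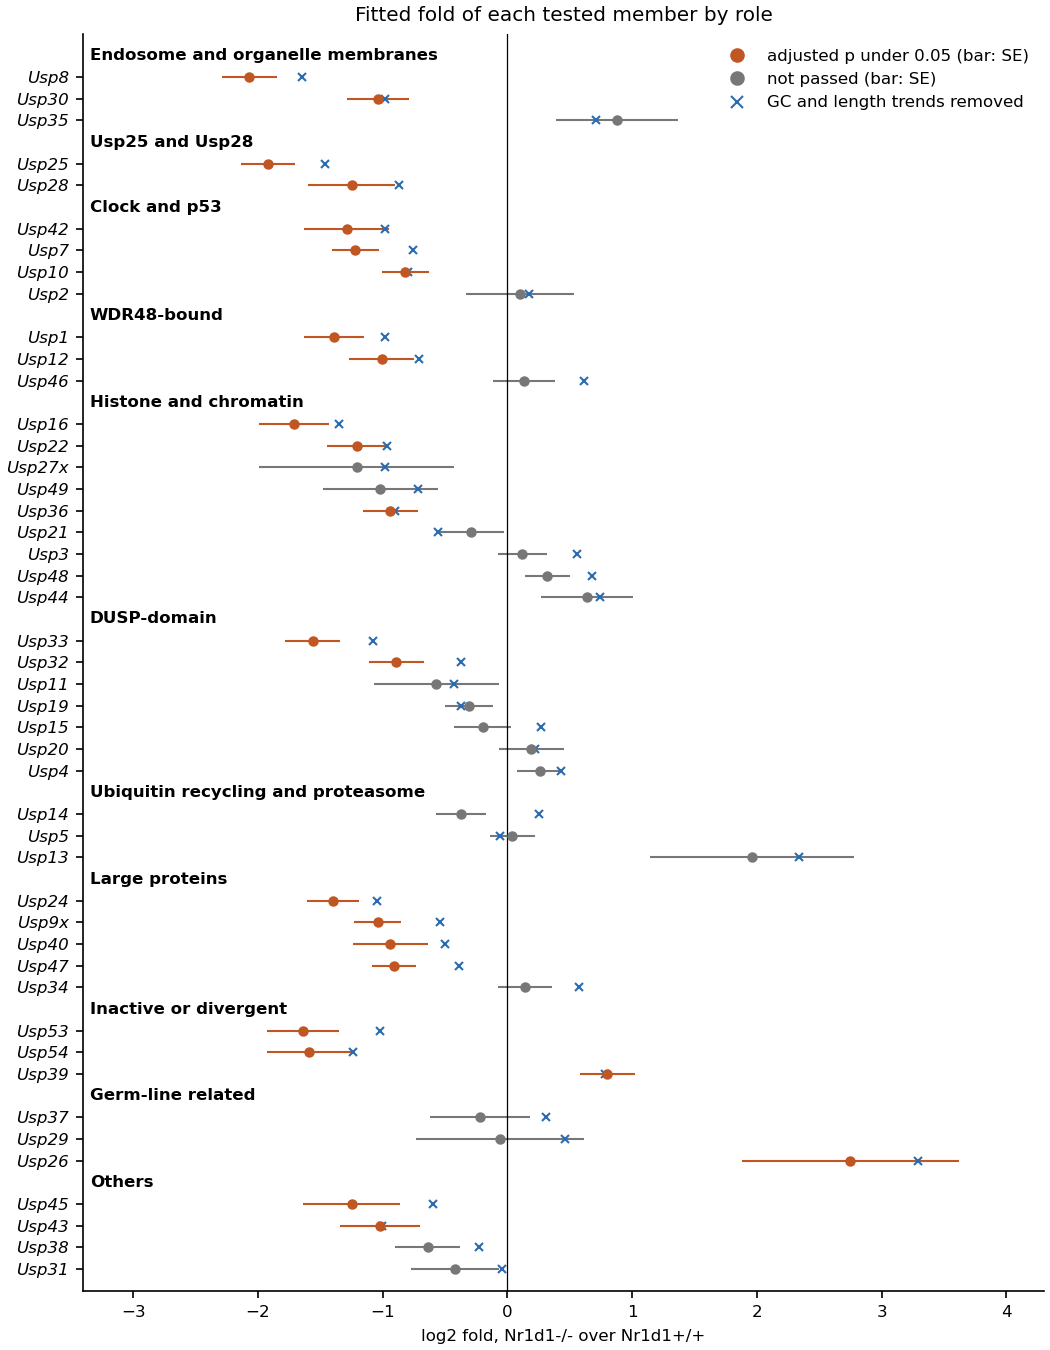
Fitted log2 fold (Nr1d1-/- over Nr1d1+/+) of each of the 46 tested members with its standard error, grouped by role; orange circles passed an adjusted p under 0.05, grey circles did not, and blue crosses give the fold with GC and length trends removed. Orange circles sit left of 0 in 9 of the 11 groups, and the crosses of the members that fell lie mostly nearer to 0 than their circles.

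The histone and chromatin enzymes were divided, with 3 of 9 tested members lower and 6 not passing. Usp16, a histone H2A deubiquitinase needed for mitosis and gene activation, was at 39.3, 58.1, 11.9 and 17.6 CPM, 48.7 ± 13.3 against 14.8 ± 4.01 (SD, n = 2), a fitted log2 change of -1.71 ± 0.28 (SE; edgeR adjusted p = 0.00382). Usp22, the H2B deubiquitinase of the SAGA coactivator, was at 78.9, 63.4, 36.4 and 25.3 CPM, 71.2 ± 10.9 against 30.8 ± 7.85 (SD, n = 2), a fitted log2 change of -1.21 ± 0.24 (SE; edgeR adjusted p = 0.0066). For both genes every Nr1d1-/- value lay under every control value, and both calls held with trends removed (-1.35 and -0.97). Usp36, a nucleolar enzyme, was at 57.2, 42.7, 27.6 and 24.6 CPM (fitted log2 fold -0.94, SE 0.22, edgeR adjusted p = 0.0139; 0.0798 without Nr1d1+/+ replicate 1). Atxn7l3, the adaptor that USP22 needs for activity, fell from 37.2 ± 0.0116 to 19.3 ± 8.52 CPM (SD, n = 2; edgeR adjusted p = 0.0389). The alternative partners of that adaptor were scarce: Usp27x was at 2.7, 1.01, 0.293 and 1.24 CPM and did not pass (edgeR adjusted p = 0.26), and Usp51 had 0, 0, 2 and 2 counts and was not tested. Usp48, a nuclear enzyme, was at 71.1, 81.9, 91.9 and 99.1 CPM without overlap and did not pass (log2 fold 0.32, SE 0.18, edgeR adjusted p = 0.195). It was called higher with trends removed (0.68, edgeR adjusted p = 0.0249) and had -0.06 with library size only. Usp3 was at 32.2, 37.7, 40 and 36.1 CPM and Usp21, both H2A deubiquitinases, at 17.6, 14.7, 12.5 and 14 CPM, with log2 folds of 0.12 and -0.29 that did not pass. Usp44 (3.26, 3.45, 5.35 and 5.09 CPM) and Usp49 (4.97, 5.65, 1.54 and 3.6 CPM) also did not pass, with edgeR adjusted p-values of 0.214 and 0.121. Usp49 passed without Nr1d1-/- replicate 2 (0.027), and 4392 bases of its exons are shared with Gm20517 on the same strand, so its counts are uncertain. Usp16 shares 192 exonic bases with Cct8.

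In the group labelled DUSP-domain, after a protein fold that most but not all of its 7 members carry, 2 fell. Usp33, which acts in receptor recycling and cell migration, was at 44.7, 51.4, 15.3 and 17.2 CPM, 48 ± 4.78 against 16.3 ± 1.32 (SD, n = 2), a fitted log2 change of -1.56 ± 0.22 (SE; edgeR adjusted p = 0.00248; -1.08 with trends removed). Its paralog Usp20 was at 17.7, 14.3, 20.6 and 16.1 CPM and overlapped between genotypes (log2 fold 0.19, SE 0.26, edgeR adjusted p = 0.595). Usp32 was at 30.8, 29.3, 17.2 and 15.1 CPM (fitted log2 fold -0.89, SE 0.22, edgeR adjusted p = 0.0168), and it did not pass with trends removed (-0.37, 0.258) or without Nr1d1+/+ replicate 1 (0.0631) or 2 (0.0622). The paralogs Usp4, Usp11 and Usp15, known from TGF-beta signalling and RNA processing, did not pass. Usp4 was at 78.5, 90.1, 94.5 and 107 CPM, Usp15 at 48.9, 75, 51.6 and 55.9 CPM and Usp11 at 2.98, 2.01, 1.76 and 1.61 CPM. Usp19, which has a form anchored in the endoplasmic reticulum, was at 68.9, 81.2, 62.5 and 58.5 CPM (fitted log2 fold -0.31, SE 0.19, edgeR adjusted p = 0.221).

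The enzymes that recycle free ubiquitin chains or work on the proteasome were not called. Usp5, the main enzyme for unanchored ubiquitin chains, varied little over the 4 samples, at 54.6, 56.1, 56.4 and 57.6 CPM (fitted log2 fold 0.04, SE 0.18, edgeR adjusted p = 0.878). Its sign depended on the setting, with -0.34 under library size only. Usp14, the USP bound to the proteasome, was at 59.2, 67.9, 44.6 and 53.5 CPM, lower in both Nr1d1-/- samples but not past the threshold (log2 fold -0.37, SE 0.20, edgeR adjusted p = 0.173). Its fold was 0.25 with trends removed and -0.75 with library size only, where it was called lower (edgeR adjusted p = 0.0198). Its exons share 2169 bases with Thoc1 on the opposite strand, and it is not known here if strand entered the counting. Usp13, the relative of Usp5, was at 0.946, 0.287, 3.96 and 1.05 CPM (fitted log2 fold 1.96, SE 0.82, edgeR adjusted p = 0.0941). The high Usp13 value was that of Nr1d1-/- replicate 1, the sample with 800 CPM of muscle markers. Without that sample the log2 fold was 0.76 (edgeR adjusted p = 0.516), and without Nr1d1-/- replicate 2 it was 2.67 (0.0115).

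Of the members that encode very large proteins and their relatives, 4 of 5 tested fell, and 1 of the 5 was called lower with trends removed. Usp9x, an X-linked enzyme with many substrates including the survival protein MCL1, lies on chromosome X from 13071498 to 13173328. It was at 119.6, 132, 67.2 and 55.4 CPM, 126 ± 9.04 against 61.3 ± 8.3 (SD, n = 2), a fitted log2 change of -1.04 ± 0.19 (SE; edgeR adjusted p = 0.00494). The Usp9x samples did not overlap, but its log2 fold was -0.54 with trends removed, just outside the threshold (edgeR adjusted p = 0.0502). Usp24 was at 85.4, 90.8, 38.8 and 28.3 CPM (fitted log2 fold -1.40, SE 0.21, edgeR adjusted p = 0.00298), and it kept its call with trends removed (-1.05). Usp47, which acts on DNA polymerase beta, was at 119.6, 125, 70.9 and 59.3 CPM (fitted log2 fold -0.91, SE 0.18, edgeR adjusted p = 0.00725; 0.146 with trends removed). Usp40 was at 14.8, 12.5, 6.23 and 7.94 CPM (fitted log2 fold -0.94, SE 0.30, edgeR adjusted p = 0.0395). The Usp40 call was lost with trends removed (0.259), with upper quartile scaling (0.0505), with no filter (0.0511), without Nr1d1+/+ replicate 1 (0.178) or 2 (0.096) and without Nr1d1-/- replicate 1 (0.119). Usp34, which acts on axin in Wnt signalling, was at 117, 99.6, 142 and 97.9 CPM and overlapped between genotypes (log2 fold 0.14, SE 0.22, edgeR adjusted p = 0.637), with 2137 exonic bases shared with Ahsa2 on the opposite strand. Usp9y, the Y-linked copy of Usp9x, had 0 counts in all 4 samples, which allows up to 0.142, 0.144, 0.22 and 0.186 CPM at a floor of 3 counts per library (counting error only).

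The members that lack or were long thought to lack catalytic activity went both ways. Usp53, a tight junction protein, was at 15.7, 18.4, 5.5 and 5.4 CPM (fitted log2 fold -1.64, SE 0.29, edgeR adjusted p = 0.00465), and Usp54, its paralog, was at 20.8, 29.5, 10.8 and 5.96 CPM (fitted log2 fold -1.59, SE 0.34, edgeR adjusted p = 0.00921). Both held with trends removed (-1.02 and -1.24). Usp39, a component of the spliceosome without an active site cysteine, rose from 17.6 and 19.2 CPM to 30.1 and 34.3 CPM (fitted log2 fold 0.80, SE 0.22, edgeR adjusted p = 0.0228), and it had 0.78 with trends removed. The Usp39 call was lost with library size only (0.42, edgeR adjusted p = 0.182). It was also lost when a control, replicate 1 (0.132) or 2 (0.0886), or Nr1d1-/- replicate 2 (0.064) was left out. Usp50 had 1 count in all and was not tested.

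The other rise was in Usp26, an X-linked gene known from testis, and it rested on few counts. The counts were 8, 5, 47 and 15, or 0.378, 0.239, 3.45 and 0.931 CPM, with the highest value again in Nr1d1-/- replicate 1 (log2 fold 2.75, SE 0.87, edgeR adjusted p = 0.039). Without that sample the Usp26 log2 fold was 1.57 (edgeR adjusted p = 0.194). The call was also lost without Nr1d1+/+ replicate 1 (0.11) or 2 (0.176), with limma-voom (0.0943), with library size only (0.0542) and with no filter (0.0743). Usp29, an imprinted gene, was at 1.32, 1.01, 1.69 and 0.621 CPM, and Usp37, which acts on cyclin A, was at 9.75, 10.1, 11.9 and 5.21 CPM, and neither passed. Of the 4 members in no role group, Usp43 (11, 14.1, 6.89 and 5.52 CPM) and Usp45 (11.4, 15.1, 3.52 and 7.51 CPM) fell, with log2 folds of -1.02 and -1.25 and edgeR adjusted p-values of 0.0358 and 0.0366. Usp43 did not pass without control replicate 1 (0.0526) or 2 (0.218) or without Nr1d1-/- replicate 2 (0.0977). Usp45 did not pass without Nr1d1+/+ replicate 2 (0.165), without Nr1d1-/- replicate 1 (0.116), with no filter (0.0629) or with trends removed (0.276). Usp38 (18.4, 18.9, 10.6 and 13.2 CPM) and Usp31 (9.23, 11.3, 9.68 and 5.71 CPM) did not pass, with edgeR adjusted p-values of 0.0832 and 0.372.

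Ratios between related members are given as values, since no difference in them could pass a test. The log2 ratio of Usp33 over Usp20 was 1.33 and 1.84 in the controls and -0.43 and 0.09 in Nr1d1-/-, a mean difference of -1.76. That of Usp12 over Usp46 was 0.52 and 0.70 against -0.04 and -0.99, a difference of -1.12. The ratio of Usp25 over Usp28, which both fell, was 2.88 and 3.15 against 2.48 and 2.27. For Usp53 over Usp54 the genotypes overlapped, at -0.40 and -0.68 against -0.98 and -0.14. The 7 ratios computed were chosen with the values known. An exact two-sided permutation test of 2 against 2 samples cannot go below p = 0.333, which 6 of the 7 gave (0.389 adjusted over the 7), and that of Usp53 over Usp54 gave p = 1.

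**Figure D5:**
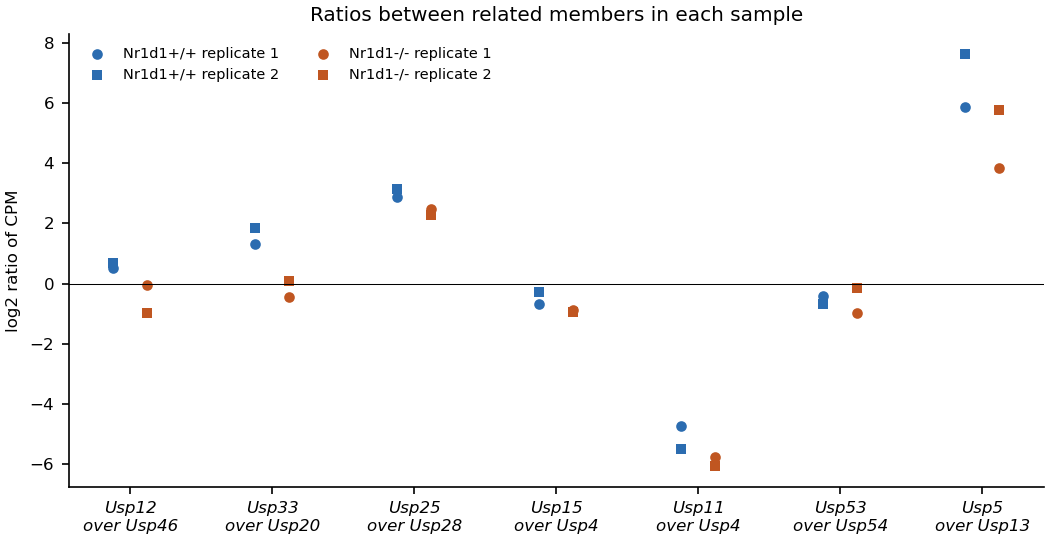
Log2 ratio of CPM between related members in each sample for 7 pairs; circles are replicate 1 and squares replicate 2, blue Nr1d1+/+ and orange Nr1d1-/-. The ratios of Usp33 over Usp20 lie at 1.33 and 1.84 in the controls and at -0.43 and 0.09 in Nr1d1-/-, while those of Usp53 over Usp54 overlap.

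In the other deubiquitinase families 6 of 38 tested genes rose, 9 fell and 23 did not pass, with a median log2 fold of -0.04. These shares, 15.8% higher and 23.7% lower, were near the 16.5% and 17.3% of all tested genes. With trends removed 6 of the 38 rose and 7 fell, against 11.2% higher and 10.6% lower over all genes tested that way. Among 14 OTU family genes 1 rose and 4 fell: Zranb1, an enzyme of Wnt signalling, rose from 38.8 ± 5.93 to 103 ± 12.8 CPM (SD, n = 2; edgeR adjusted p = 0.00273), and Otud6b, Otud4 and Tnfaip3, the last a brake on NF-kappaB, fell with log2 folds of -1.43, -1.41 and -1.92. Among 11 JAMM metalloproteases and their inactive relatives 4 rose and 1 fell, with Mpnd (log2 fold 1.20), the signalosome subunit Cops6 (0.78) and the translation factor subunit Eif3f (0.99) higher and Stambp (-1.17), which acts beside USP8 on endosomes, lower. Cyld, which resembles USPs in its catalytic domain, fell from 36.6 ± 3.78 to 14.4 ± 2.63 CPM (SD, n = 2; log2 fold -1.34, edgeR adjusted p = 0.00477). Bap1 of the UCH family fell (-0.72), and of the Josephin family Josd2 rose (1.57) and Atxn3 fell (-1.22). With trends removed Bap1 kept its call, and those of Josd2 (0.54, edgeR adjusted p = 0.0918) and Atxn3 (-0.62, 0.11) were lost. Of 5 MINDY and ZUP1 genes 1 fell, Fam63b (-1.38).

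Among genes that attach ubiquitin, Uba1, the main ubiquitin E1, rose from 330.5 ± 34.4 to 519.6 ± 57.4 CPM (edgeR adjusted p = 0.0252). Uba6, the other E1 tested, was at 5.35, 8.91, 3.59 and 3.1 CPM and did not pass (log2 fold -1.09, SE 0.41, edgeR adjusted p = 0.0687). Of 31 tested E2 genes 3 rose and 5 fell. The shares, 9.68% and 16.1%, were not above those of all tested genes (16.5% and 17.3%). Among them Ube2d1 (log2 fold -1.76) and Ube2g1 (-1.65) were lower and Ube2m (1.09) and Ube2s (1.02) higher. With trends removed Ube2d1 (-1.84) and Ube2g1 (-1.13) kept their calls. Those of Ube2m (0.22, edgeR adjusted p = 0.394) and Ube2s (0.33, 0.231) were lost. Of 12 partner subunits of USPs 4 fell, which were Stam, Wdr48, Atxn7l3 and Atxn7l1, and 0 rose. The share that fell was 33.3%, against 17.3% of all tested genes. With trends removed 1 of the 12 was lower, Atxn7l3, and 1 was higher, Eny2 (log2 fold 0.9, edgeR adjusted p = 0.0211). Over all genes tested that way 10.6% were lower and 11.2% higher. Over all the lists tested 11 of 87 tested genes rose and 18 fell, shares of 12.6% and 20.7%, and in the USPs the shares were 4.35% and 47.8%. With trends removed 10 of the 87 rose and 11 fell, and of the 46 tested USPs 3 rose and 14 fell.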

How the data were processed

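RNA from 4 mammary tumour samples was extracted with Trizol and made into libraries with a SMARTer Stranded kit from 1.3 ug of total RNA, per the labels' protocols. The authors aligned reads with TopHat to mm10, per the submitters' processing notes, and deposited raw read counts, 1 row per symbol. Not given in the sources used here: program versions, how reads were counted, on which annotation and with which strand setting. All 49 members were joined to GENCODE M21 (GRCm38, the assembly of mm10); lengths and GC content are of 1 transcript per gene, taking APPRIS principal ones first, then basic ones, then the longest.

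From the counts, genes passing edgeR's filterByExpr (minimum count 10) were TMM-scaled. The test was edgeR's quasi-likelihood F (glmQLFit, legacy=FALSE; edgeR 4.0.16, R 4.3.3) on genotype, without other terms, using Benjamini-Hochberg adjustment over 14801 genes. The biological coefficient of variation was 0.249. Each SE is the log2 fold divided by the root of F. The script was tested on simulated data. GC and length trends were removed with splines of 5 degrees of freedom per library, as offsets. Other settings were DESeq2 1.42.0, limma-voom 3.58.1, other scalings and filters, the older quasi-likelihood estimate, a threshold of 0.1, a replicate block and leaving out each library. The members of a group differed beyond sampling noise, so none was counted as a duplicate.

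Members, role groups and lists were chosen with earlier results of these data known. By rule, sample values were given for every called member, for Usp1, Usp2, Usp7, Usp9x, Usp14 and Usp22, and up to 4 called genes were named per other list, lowest p first; the result of 1 list is in the sums and otherwise not reported here. Fat, T and B cell, neutrophil and fibroblast markers were also summed, with highest values of 122, 18.2, 35.8 and 1054 CPM, each in an Nr1d1-/- sample. The genotypes overlapped for the neutrophil sums (17.2, 21.2, 35.8 and 19.1 CPM) and the fibroblast sums (567, 1028, 1006 and 1054 CPM). They did not overlap for the fat sums and the T and B cell sums.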

Additional observations from a re-analysis of the deposited data

How the results depend on the processing

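The count of 22 USPs called lower stayed between 15 and 26 under every alternative but the removal of GC and length trends (14) and the fit without Nr1d1+/+ replicate 2 (14); leaving out 1 library gave 14 to 21 lower and 0 to 3 higher. The count of 2 called higher was 0 with library size only, 1 with no filter, with genes of mean 5 CPM or more and with limma-voom, and 5 with the replicate block and trends removed. The members' median log2 fold of -0.86 was -1.24 with library size only, -0.46 with trends removed and -0.45 with the replicate block and trends removed, and -0.84 to -0.72 over fits without 1 library. Over all genes, 1281 were higher and 4410 lower with library size only and 1547 were lower with trends removed; without 1 library 1212 to 2463 were higher and 1277 to 2548 lower. In the other deubiquitinase and ubiquitin lists, 18 called lower became 36 with library size only and 11 with trends removed, and 9 to 16 without 1 library. In all, 10 of the 24 called members (Usp1, Usp7, Usp8, Usp16, Usp22, Usp24, Usp25, Usp33, Usp53 and Usp54) kept their call under all 16 alternatives, and no called member changed sign. The threshold of 0.1 is 1 of the 16 and could not remove a call. Genotypes did not overlap for the 22 that fell, so leaving out 1 library could hardly turn their sign. The cause of the changes between settings was not tested.

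Signs turned only for members that had not passed. With library size only, log2 folds were -0.24 for Usp34, -0.18 for Usp20, -0.06 for Usp48, -0.25 for Usp46, -0.34 for Usp5, -0.29 for Usp2, -0.26 for Usp3 and -0.12 for Usp4. With trends removed they were 0.31 for Usp37, 0.27 for Usp15, 0.25 for Usp14, -0.06 for Usp5 and 0.46 for Usp29, and with the replicate block as well 0.23, 0.28, 0.24, -0.06 and 0.42. Leaving out each library in turn gave ranges of -0.92 to 0.27 for Usp37, -0.52 to 0.12 for Usp15, -0.15 to 0.39 for Usp34, -0.12 to 0.33 for Usp46, -0.01 to 0.06 for Usp5, -0.90 to 0.53 for Usp29, -0.80 to 0.68 for Usp2 and -0.03 to 0.22 for Usp3. Usp2 had -0.10 with limma-voom and -0.03 with the replicate block.

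Same-numbered samples did not deviate together (correlation of their deviations 0.026), and the labels do not say what a number shares. With the replicate number as a block, 22 USPs were lower and 3 higher, Usp13 (edgeR adjusted p = 0.0446) being the addition. Over all 14801 tested genes 2704 were lower and 2622 higher in that fit. Where 1 arm is left with a single sample, that sample is assumed to vary like the others. Low counts limit Usp13, Usp26, Usp27x, Usp29 and Usp11, whose levels were under 4 CPM in every sample.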

Other observations

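Outside the symbol rule, Usp17la, which belongs to a cluster of rodent USP genes first known as cytokine-induced deubiquitinases, was chosen after its values were seen. The controls had 32.4 and 14.3 CPM of it and the Nr1d1-/- samples 154 and 104 CPM, a fitted log2 change of 2.46 ± 0.37 (SE; edgeR adjusted p = 0.0029; 2.68 with trends removed). The genotypes did not overlap. Usp17lb, Usp17lc, Usp17ld and Usp17le had 0 counts in all 4 samples. Copies of this cluster are alike in sequence, so how their reads were assigned is uncertain.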
